A study of Drosophila melanogaster with 24 samples.

Results

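The proteasome subunit genes of Drosophila melanogaster were followed in RNA-seq libraries from female heads with thoraces, taken from wDah control flies and Gcn2 mutants. Members were chosen by name, as the genes of the table of all 24 libraries whose symbol starts with Prosalpha or Prosbeta, or with Rpn or Rpt followed by a digit, and whose normalized count averaged 10 or more. The table lists 12126 features, of which 33 matched by name and 32 passed the minimum. These 32 are the somatic-type subunits, with 7 genes of the alpha ring and 7 of the beta ring of the 20S core, and 6 ATPases, 4 further base subunits or ubiquitin receptors and 8 lid subunits of the 19S regulatory particle. The remaining match was a testis-type paralog, Rpt3R, and it is given apart. The rule reads names and mean levels only, and it was written with earlier results of these data known.

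The mutants carry a marker gene, white, in place of the coding sequence of Gcn2 and had been backcrossed into the white-eyed Dahomey background wDah, which served as the control. Once-mated females were kept for 3 days on Yaa, a holidic diet whose amino acid composition is based on yeast, or on Yaa without arginine (-R), without methionine (-M) or without any amino acid (-All). The 8 groups of 1 genotype on 1 diet had 3 libraries each, and every library was made from 25 flies. The labels give replicate numbers only, and the study describes its 3 replicates as biological.

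The proteasome degrades proteins that carry chains of ubiquitin. Its 20S core is a barrel of alpha and beta rings, whose inner chamber holds the catalytic sites of Prosbeta1 (caspase-like), Prosbeta2 (trypsin-like) and Prosbeta5 (chymotrypsin-like). The 19S particle binds ubiquitin through receptors such as Rpn10 and Rpn13, removes the chain through the deubiquitinase Rpn11, and unfolds the substrate with a ring of AAA ATPases, Rpt1 to Rpt6. Subunit genes are known to be expressed together, and in flies the transcription factor CncC, a product of the gene cnc, raises them when proteasome activity is limiting. Gcn2 is a kinase that responds to uncharged tRNA when amino acids are scarce.

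The normalized counts of a library summed to between 20.9 and 27.5 M. Gcn2 was at 597 to 701 normalized counts in the 12 wDah libraries and at 106 to 185 in the 12 mutant libraries, so Gcn2 was lower in each library labelled mutant than in any labelled wDah. Some signal remained in every mutant library, whereas the study found no Gcn2 RNA in the mutant by Northern blot. Only the coding sequence was replaced, and where in the gene the remaining reads lie was not tested. Markers of photoreceptors (11 of 11 listed) and of flight muscle (7 of 7) were high in each library, as heads and thoraces should show. Ovary transcripts varied within groups. A score, the median of 15 ovary markers on the log2 scale, exceeded the mean of the other replicates by over 2 in 5 libraries, which were Gcn2 Yaa replicate 2 (by 6.25), Gcn2 -R replicate 1 (5.84), Gcn2 -M replicate 2 (4.17), wDah -M replicate 1 (3.89) and wDah -All replicate 1 (2.49). The rule compares replicates of a group, so wDah -All replicate 3 was not among them. Its score of 6.67 was above that of wDah -M replicate 1 (6.35). Fits on wDah -All without the 5 libraries therefore still hold a library with a high score. Among the 15 ovary markers bru1 had the highest mean over the 24 libraries (2485 normalized counts), followed by yl (533), so bru1 weighs heavily in their sum. The summed ovary markers reached 29166 normalized counts in Gcn2 Yaa replicate 2 and 18636 in Gcn2 -R replicate 1, and the lowest library of all held 2003. The counts of members called in a comparison are therefore given with and without these 5 libraries. Counts of members with separate libraries, of calls by particle and of shared calls are given with all libraries only. The mean of the members correlated with the ovary score at 0.42 over all libraries and at 0.66 after group means were subtracted. For some comparisons a fit with the score as a covariate is given as well. The part of ovary transcripts in the differences beyond these fits was not tested. Fewer cells of a type and less RNA per cell cannot be told apart in such bulk samples.

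Levels of different genes are compared here as FPKM, which the authors computed and which corrects for gene length. In wDah flies on Yaa the 32 subunits lay within a narrow range. Prosbeta5 was highest (70.1 ± 3.54 FPKM, SD, n = 3) and Rpn1, a scaffold of the base, was lowest (20.7 ± 0.534 FPKM). Subunits of the 20S core stood above those of the 19S particle, with medians of 43.3 FPKM for the alpha ring and 49.1 FPKM for the beta ring, against 36.7 FPKM for the ATPases, 32.7 FPKM for the other base subunits and 34.2 FPKM for the lid. In the alpha ring Prosalpha2 led with 68.3 ± 0.570 FPKM, next to Prosbeta5 and within the spread of replicates of it. Prosbeta5, Prosalpha2 and Prosbeta7 took the highest ranks in mutants on Yaa, at 93.5 ± 8.03, 88.2 ± 6.09 and 81.4 ± 5.96 FPKM.

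In mutants without arginine the order of the levels was different. Prosbeta5 reached 166 ± 33.0 FPKM, Prosalpha2 138 ± 26.3 and Prosbeta4, a structural subunit of the beta ring, 122 ± 16.2, while Prosbeta7 was 9th with 86.4 ± 10.4 FPKM. At the low end, Rpn7 of the lid held 37.7 ± 5.70 FPKM and had become the lowest subunit, and Rpn1 had moved up to 53.6 ± 14.8 FPKM. The span from the lowest to the highest mean was 25.1 to 71.9 FPKM in wDah flies on -R and 37.7 to 166 FPKM in mutants on -R.

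**Figure D1:**
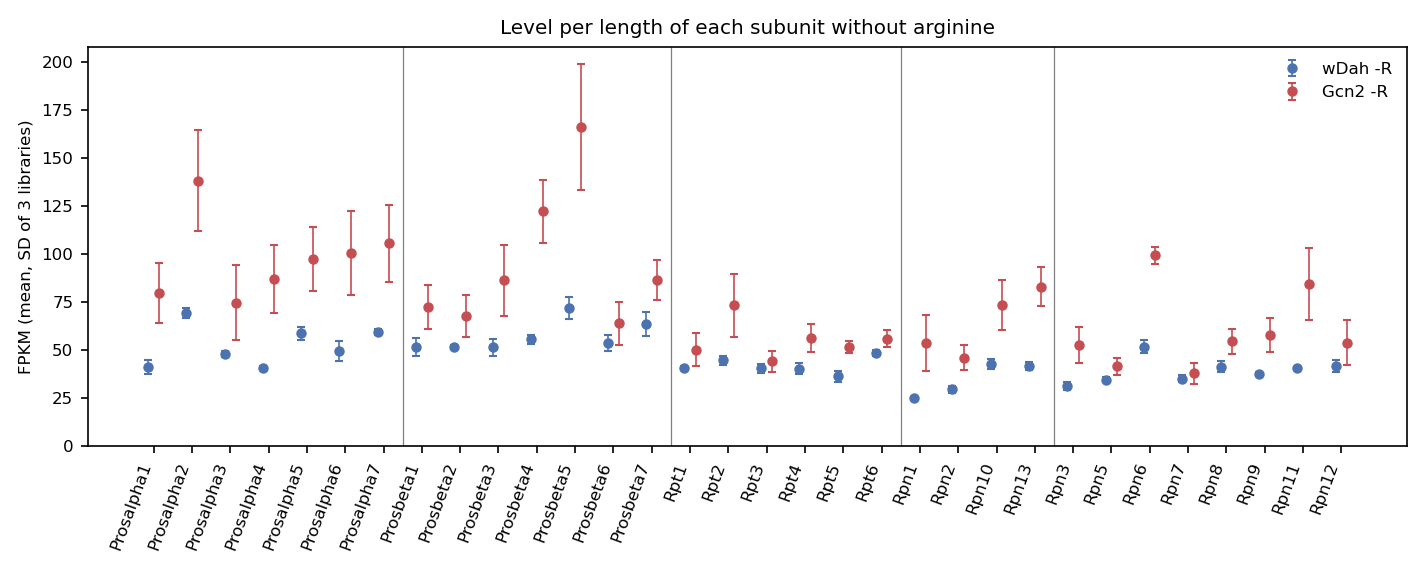
FPKM of each of the 32 subunits (y axis, linear) in wDah flies (blue) and Gcn2 mutants (red) without arginine, with points for the mean and bars for the SD of 3 libraries, and vertical lines between the alpha ring, beta ring, ATPases, other base subunits and lid. Prosbeta5 stands at 71.9 FPKM in wDah flies and 166 FPKM in mutants, while Rpn7 and Rpt3 have nearly the same level in both.

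Testis-type paralogs are copies of subunit genes that in Drosophila are expressed in the male germline. The gene name table holds 16 of them among 48 family names. Rpt3R, a paralog of the ATPase Rpt3, held between 1.0 and 8.8 normalized counts and was not tested. Of the others, Prosalpha4T2, Prosbeta2R1, Prosbeta2R2 and Rpt6R are listed in tables of single diet comparisons at no more than 13.4 normalized counts. A further feature, listed as CG30382, has the identifier of a gene that the name table calls Prosalpha1R. It held 213 to 842 normalized counts in the tables of single diet comparisons, which are scaled apart from the table of all 24 libraries. The feature did not match the rule by name, and its sequence is close to that of Prosalpha1. Reads may thus be split between both, and the values of Prosalpha1 are uncertain. Of the 32 members, 15 overlap another listed gene in the BDGP6.54 annotation, and for all but Rpt1 the other gene lies on the opposite strand. Strand was not stated for the libraries, so reads in the overlaps cannot be assigned. The genes are spread over the genome, with 10 on 2R, 9 on 3R, 5 on 3L, 4 on 2L and 4 on the X chromosome.

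The members moved together across the study. When each gene was centred on its own mean over the 24 libraries, the mean of the 32 genes was lowest in wDah flies on Yaa (-0.31 ± 0.037 on the log2 scale, SD, n = 3). It then rose through wDah -R (-0.16 ± 0.061), wDah -M (-0.12 ± 0.047), wDah -All (-0.11 ± 0.18), Gcn2 -All (-0.078 ± 0.058), Gcn2 Yaa (0.069 ± 0.17) and Gcn2 -M (0.23 ± 0.073) to Gcn2 -R (0.49 ± 0.23). Neighbours in this order overlapped in their libraries, except that the wDah Yaa libraries (-0.34 to -0.27) lay below the wDah -R libraries (-0.23 to -0.12). By gene, 30 of 32 members had their lowest group mean in wDah flies on Yaa. The highest group mean was in Gcn2 -R for 24 members and in Gcn2 -M for the other 8. As a share of all normalized counts listed, the 32 genes took 0.152% to 0.159% in wDah flies on Yaa, 0.147% to 0.161% on -R, 0.160% to 0.175% on -M and 0.136% to 0.169% on -All. In mutants the share was 0.185% to 0.245% on Yaa, 0.231% to 0.335% on -R, 0.193% to 0.218% on -M and 0.148% to 0.155% on -All. By this measure the medians of wDah -All (0.139%) and Gcn2 -All (0.151%) were below that of wDah Yaa (0.155%), unlike in the order above.

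In 3 groups the library high in ovary transcripts was the highest for nearly all members. In Gcn2 Yaa, 31 of 32 members were highest in replicate 2, in Gcn2 -R 31 were highest in replicate 1, and in wDah -All 31 were highest in replicate 1. Within Gcn2 -R, replicate 3 was lowest for all 32 members. In wDah -M and Gcn2 -M the mean of the members was not highest in the library high in ovary transcripts.

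**Figure D2:**
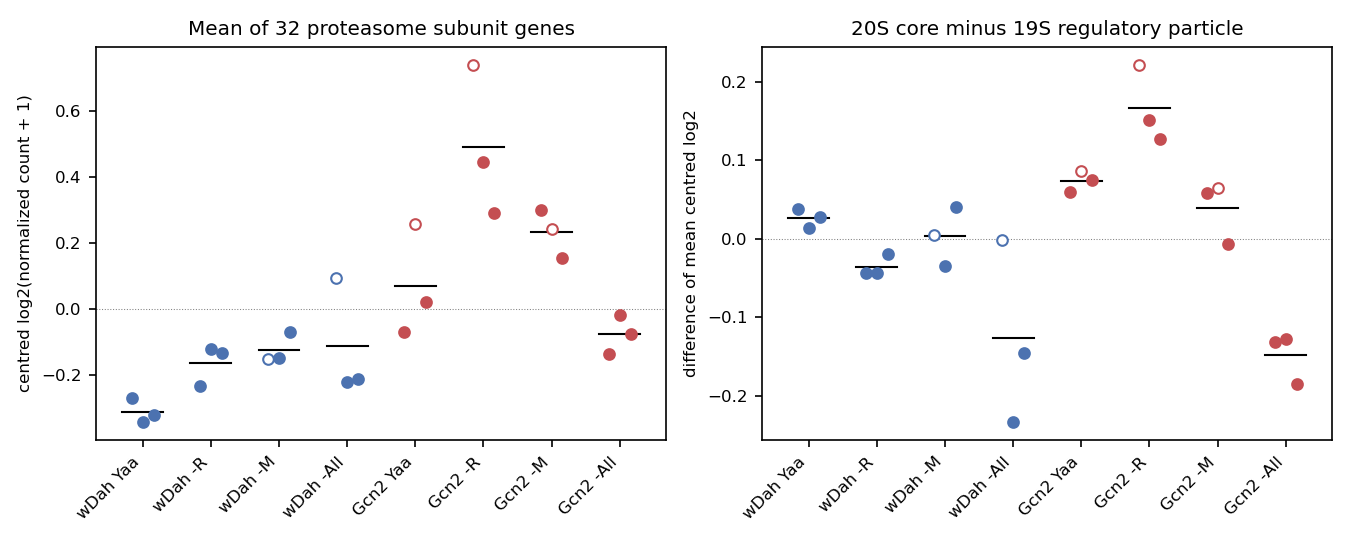
Left, the mean over 32 subunit genes of the centred log2(normalized count + 1) in each library (blue, wDah; red, Gcn2 mutant; open points, libraries high in ovary transcripts; bars, group means). Right, the mean of the 14 core genes minus that of the 18 regulatory particle genes in the same libraries, which is highest in Gcn2 -R (0.13 to 0.22) and lowest in Gcn2 -All and wDah -All.

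In wDah flies each deprivation was compared with Yaa. The differences were small and nearly all upward, and the calls on -R and -M were lost almost wholly when all 24 libraries shared a single fit (1 and 2 members called). Without arginine 13 of 32 members rose and none fell, where 13.8% of all 10904 genes tested rose and 8.98% fell. Without methionine 22 of 32 rose and none fell (background 15.3% higher and 10.4% lower), and without amino acids 10 rose and none fell (19.7% and 15.7%). Calls are adjusted p under 0.05 in limma on log2(normalized count + 1), with p-values adjusted over all genes tested. The share of all genes called is not given for the single fit, fits with a covariate or fits without 1 library. Counts from such fits cannot be read as specific to the members. The median log2 difference of the members on -R, -M and -All was 0.16, 0.19 and 0.21, and that of all genes was -0.014, 0.0059 and -0.018. In 18 members on -R, 27 on -M and 18 on -All every deprived library was above every Yaa library, which held for 21.0%, 24.4% and 25.9% of all genes.

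Rpn1, which anchors ubiquitin receptors to the base, held 1372, 1426 and 1441 normalized counts on Yaa, 1753, 1683 and 1707 on -R, 1678, 1595 and 1743 on -M and 2041, 1779 and 1685 on -All. No library of a deprived group overlapped Yaa. It had the largest difference of all members on -R (log2 difference 0.28, SE 0.037, adjusted p = 0.001) and on -All (log2 difference 0.37, SE 0.072, adjusted p = 0.0059). The ATPase Rpt2 held 1247, 1239 and 1266 on Yaa and 1409.5, 1555 and 1459 on -R, 1483, 1481 and 1472 on -M and 1729, 1512 and 1509.7 on -All, again without overlap. Its log2 difference was 0.24 on -R, 0.24 on -M and 0.34 on -All (adjusted p = 0.006, 0.0021 and 0.0042 in limma). Rpt1, another ATPase of the ring, rose from 1156, 1087 and 1108 to 1267, 1304 and 1305 on -R (0.21, SE 0.039, adjusted p = 0.006).

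Without methionine the largest difference was that of Prosalpha3, a subunit of the alpha ring that forms part of the gate of the core. It held 791, 793 and 762 normalized counts on Yaa and 998, 955 and 992 on -M, well apart (log2 difference 0.33, SE 0.043, adjusted p = 0.0013). The ATPase Rpt5 rose from 1126, 1026 and 1114 to 1314, 1361 and 1374 (0.31, adjusted p = 0.0028) and the catalytic Prosbeta1 by 0.32 (adjusted p = 0.0047), from 791, 728 and 771 to 941, 908 and 1005 normalized counts. Of the other catalytic subunits Prosbeta5 was called on -M (0.20, adjusted p = 0.033) and Prosbeta2 was not (0.14, adjusted p = 0.065). All 8 lid subunits rose on -M, with log2 differences between 0.17 and 0.25.

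Without all amino acids the members called were all of the 19S particle. Rpn6, the lid subunit that clamps the base to the core, held 1733, 1704 and 1764 normalized counts on Yaa and 2245, 2166 and 2088 on -All (log2 difference 0.32, SE 0.042, adjusted p = 0.0011). Rpn3, a further lid subunit, rose from 1004, 956 and 985 to 1301, 1139 and 1204 (0.31, adjusted p = 0.0055) and the deubiquitinase Rpn11 by 0.33 (adjusted p = 0.0068), from 927, 913 and 893 to 1248, 1127 and 1059. Prosbeta5, in contrast, held 1660.0, 1539 and 1511 on Yaa and 1831, 1439 and 1451 on -All, with overlapping libraries and a log2 difference of -0.0043 (SE 0.10). In all, 10 of 18 genes of the 19S particle and 0 of 14 core genes were called on -All, with medians of 0.27 and 0.090. On -R the counts were 10 of 18 and 3 of 14, and on -M 14 of 18 and 8 of 14. Whether both particles differ was not tested.

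These small differences depended on how libraries were scaled. With libraries rescaled to the same total the median of all genes became -0.16 for -R, -0.087 for -M and -0.30 for -All. Of the members 1 was then called higher and 2 lower on -R, 5 were called higher on -M, and 2 were called lower on -All, where their median turned to -0.076. Over all genes 874 were then called higher and 3963 lower on -R, 1020 and 2304 on -M, and 943 and 5893 on -All, against 1502 and 979, 1669 and 1140, and 2154 and 1724 with the deposited scaling. Relative to the median of all genes the members stood higher by 0.18, 0.19 and 0.23 under the deposited scaling and by 0.18, 0.19 and 0.22 after rescaling. Without the libraries high in ovary transcripts 22 members rose on -M (background 13.5%) and 11 on -All (19.0%), with medians of 0.21 and 0.11. The fit on -All still held wDah -All replicate 3, with an ovary score of 6.67. With the ovary score as a covariate in place of leaving libraries out, 1 member was called on -All, with a median of 0.031 over the members and -0.20 over the core genes. Leaving out wDah Yaa replicate 3 left 5 members called on -R and 10 on -M, and leaving out wDah Yaa replicate 2 left 13 on -M. Neither for these fits nor for the covariate fit is the share of all genes called given.

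Gut digestive enzymes and fat body and yolk genes moved further than the subunits in wDah flies under each deprivation. Photoreceptor markers did so without methionine (median log2 difference -0.24) and without all amino acids (-0.37), but not without arginine (-0.00022). Flight muscle markers had medians of -0.019 without arginine, 0.019 without methionine and 0.24 without all amino acids. The summed gut digestive enzymes (15 of 16 listed) were at 156134 to 177617 normalized counts on Yaa, 270298 to 295134 on -R, 238809 to 283902 on -M and 337294 to 366179 on -All. Fat body and yolk genes (6 of 6) were at 389977 to 463816 on Yaa, 1296562 to 1442337 on -R, 595535 to 655940 on -M and 3007038 to 3405486 on -All. Photoreceptor markers were at 404952 to 430346 on Yaa, 394932 to 423135 on -R, 317236 to 372863 on -M and 283565 to 359829 on -All. The part of these shifts in the subunit differences was not tested.

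In Gcn2 mutants the deprivations were again compared with Yaa. On -R 11 of 32 members rose and none fell (background 17.3% higher and 4.60% lower), with a median log2 difference of 0.47. On -M none passed the test in limma (background 8.55% higher and 2.49% lower), with a median of 0.18 and 9 members at an unadjusted p under 0.05. The share of all genes at that unadjusted p is not given, so the 9 cannot be set against it. On -All a single member, Prosbeta5, fell (background 10.6% higher and 3.54% lower), and the median was -0.13. The 3 comparisons share the 3 mutant libraries on Yaa, 1 of which is the highest in ovary transcripts of all libraries. On -R the gut digestive enzymes were at 61639 to 94534 normalized counts in sum, against 163446 to 190132 on Yaa, with 9 of 15 called lower and a median log2 difference of -1.37. Photoreceptor markers had a median of -0.40 with 0 of 11 called, and the part of both in the subunit differences was not tested.

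Without arginine Prosbeta5 held 4572, 3344 and 3247 normalized counts against 1936, 2290.0 and 2057 on Yaa. The groups did not overlap (log2 difference 0.81, SE 0.16, adjusted p = 0.014). The ubiquitin receptor Rpn13 rose from 1413, 1454 and 1461 to 2766, 2420.1 and 2175 (log2 difference 0.76, SE 0.11, adjusted p = 0.005), and Rpn6 from 2376, 2753 and 2373 to 3944, 4013 and 3684 (log2 difference 0.64, SE 0.10, adjusted p = 0.0062). All mutant libraries on -R were above those on Yaa for both genes. The largest difference was that of Rpn1, from 1837, 2391 and 1841 to 4810.3, 3290.1 and 2898 normalized counts (log2 difference 0.83, SE 0.21, adjusted p = 0.037), where replicate 1 stood far above the others. Rpn10, the receptor that binds ubiquitin through a short helix, held 1394, 1659 and 1449 on Yaa and 2562, 2079.9 and 1813 on -R and did not pass the test (0.51, adjusted p = 0.057). The other members called were Prosalpha1, Prosalpha2, Prosalpha4, Prosalpha6, Prosbeta4, Rpn11 and Rpt5. For 20 members all -R libraries were above all Yaa libraries, which held for 26.6% of all genes.

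Without the libraries high in ovary transcripts, 22 members rose on -R and 1, Rpt3, fell (background 33.0% higher and 24.6% lower), with a median of 0.45. In this fit each group has 2 libraries. On -M, 15 members rose (background 12.4%) and the median was 0.26. On -All, Prosbeta5 (-0.32) and Prosbeta4 (-0.33) fell (background 9.15%). The count on -R without single libraries was 2, 17 and 2 when Gcn2 Yaa replicates 1, 2 and 3 were left out, and 6 and 3 when Gcn2 -R replicates 1 and 2 were left out. On -M the count was 21 without Gcn2 Yaa replicate 2. On -All no member was called without Gcn2 Yaa replicate 3 or without any 1 of the Gcn2 -All libraries, and 2 were called without Gcn2 Yaa replicate 2. For fits without single libraries the share of all genes called is not given, so these counts cannot be read as specific to the members.

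On -M the largest difference was that of Rpt2, from 1521, 1921 and 1611 on Yaa to 2329.9, 2177 and 2046 on -M (0.38, adjusted p = 0.065 in limma, without overlap). On -All Prosbeta5 fell from 1936, 2290.0 and 2057 to 1540.2, 1607 and 1642 (log2 difference -0.39, SE 0.083, adjusted p = 0.022), while Prosbeta4 had the largest difference, from 919, 1256 and 1000.2 to 708, 814 and 766, and did not pass (-0.46, adjusted p = 0.058). The core genes had log2 differences between -0.46 and -0.16 on -All and those of the 19S particle between -0.25 and 0.091. Rescaling to the same total moved the median of all genes to -0.37 on -All, and 24 members were then called lower. On -R and -M it moved that median to -0.10 and -0.21, and 3 and 0 members were then called. Over all genes 1538 were then called higher and 1024 lower on -R, 653 and 1105 on -M, and 724 and 4267 on -All, against 1897 and 503, 936 and 272, and 1161 and 388 with the deposited scaling.

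**Figure D3:**
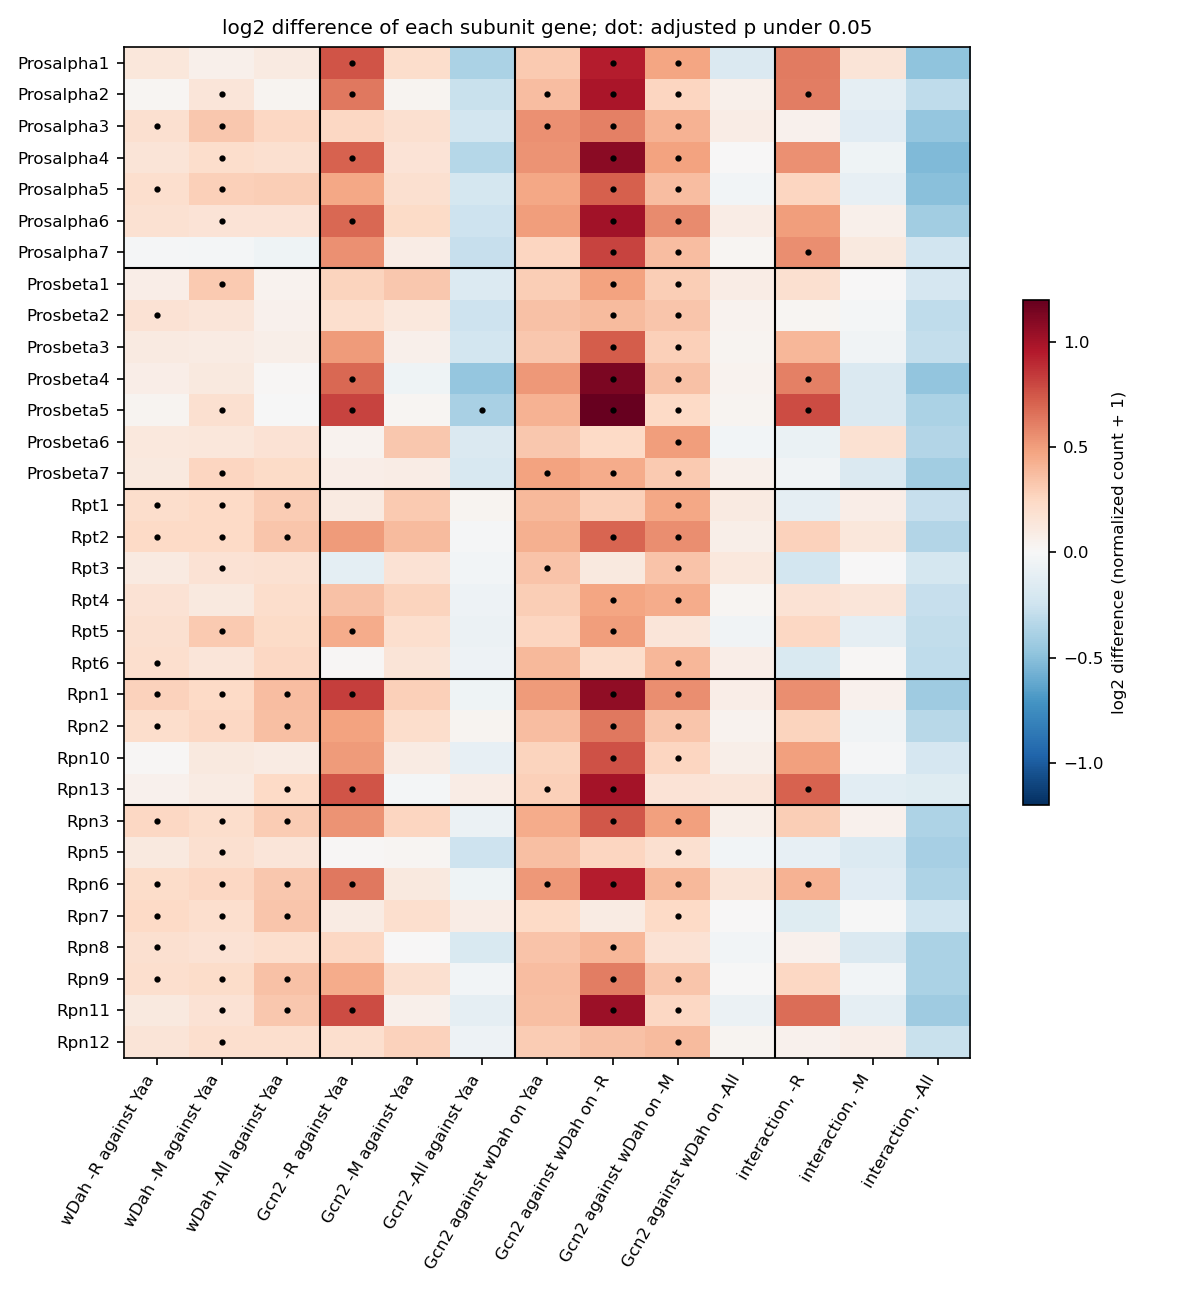
Differences of the 32 subunits (rows, grouped by horizontal lines into alpha ring, beta ring, ATPases, other base subunits and lid) in the 13 comparisons (columns), as log2 differences from blue (lower) to red (higher), with a dot where the adjusted p was under 0.05. Red is deepest in Gcn2 mutants against wDah on -R, where 25 members carry a dot, and the column for mutants against wDah on -All is pale, with no dots.

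The genotypes were then compared on each diet. All 32 members had higher means in mutants than in wDah flies on Yaa, -R and -M, and the median difference was largest without arginine. On Yaa 6 of 32 members rose and none fell (background 1.38% higher and 1.31% lower), with a median log2 difference of 0.36. For 31 of the 32 every mutant library was above every wDah library, which held for 15.5% of all genes. On -R 25 rose and none fell (background 27.7% higher and 18.2% lower), with a median of 0.66 and 29 members with separate libraries (background 34.0%). On -M 29 rose and none fell (background 12.2% higher and 10.9% lower), with a median of 0.34, and all 32 had separate libraries (background 20.7%). On -All none was called in limma (background 0.560% higher and 0.514% lower), and the median was 0.042. Without the libraries high in ovary transcripts 23 members rose on Yaa (background 6.16%), 26 on -R (33.5%), 17 on -M (8.37%) and none on -All (0.322%), with medians of 0.29, 0.52, 0.31 and 0.16. Rescaling to the same total or upper quartile left these medians of the members positive. Over all genes 3027 were called higher and 1987 lower on -R, and 2451 and 2795 after rescaling to the upper quartile. On -M 1329 were called higher and 1188 lower, against 1040 and 1487 after rescaling to the total and 1042 and 1641 to the upper quartile.

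On the full diet Rpn6 differed most clearly. It held 1733, 1704 and 1764 normalized counts in wDah flies and 2376, 2753 and 2373 in mutants (log2 difference 0.52, SE 0.073, adjusted p = 0.016). Prosalpha3 held 791, 793 and 762 in wDah flies and 1083, 1277 and 1092 in mutants and had the largest difference (log2 difference 0.55, SE 0.081, adjusted p = 0.021). Prosbeta7, a beta ring subunit without catalytic activity, held 1283, 1176 and 1183 in wDah flies and 1568, 1816 and 1712 in mutants (log2 difference 0.48, SE 0.075, adjusted p = 0.025). The other members called were Prosalpha2, Rpn13 and Rpt3. Leaving out any 1 wDah Yaa library left 0 members called, leaving out Gcn2 Yaa replicate 1 left 2, leaving out Gcn2 Yaa replicate 3 left 1 and leaving out Gcn2 Yaa replicate 2 gave 23. The share of all genes called in these fits is not given.

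Without arginine all 3 catalytic subunits rose in mutants against wDah flies. Prosbeta5 held 1472, 1725 and 1638 normalized counts in wDah flies and 4572, 3344 and 3247 in mutants, a ratio of means of 2.31 and the largest log2 difference of all members (log2 difference 1.19, SE 0.15, adjusted p = 0.0012). Prosbeta1 held 728, 825 and 872 in wDah flies and 1332, 1091 and 985 in mutants (log2 difference 0.48, SE 0.13, adjusted p = 0.026), and Prosbeta2 1028, 1036 and 1055 in wDah flies and 1601, 1298 and 1183 in mutants (log2 difference 0.38, SE 0.12, adjusted p = 0.042). In none of them did the groups overlap. The ratios of means were 1.40 and 1.31.

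**Figure D4:**
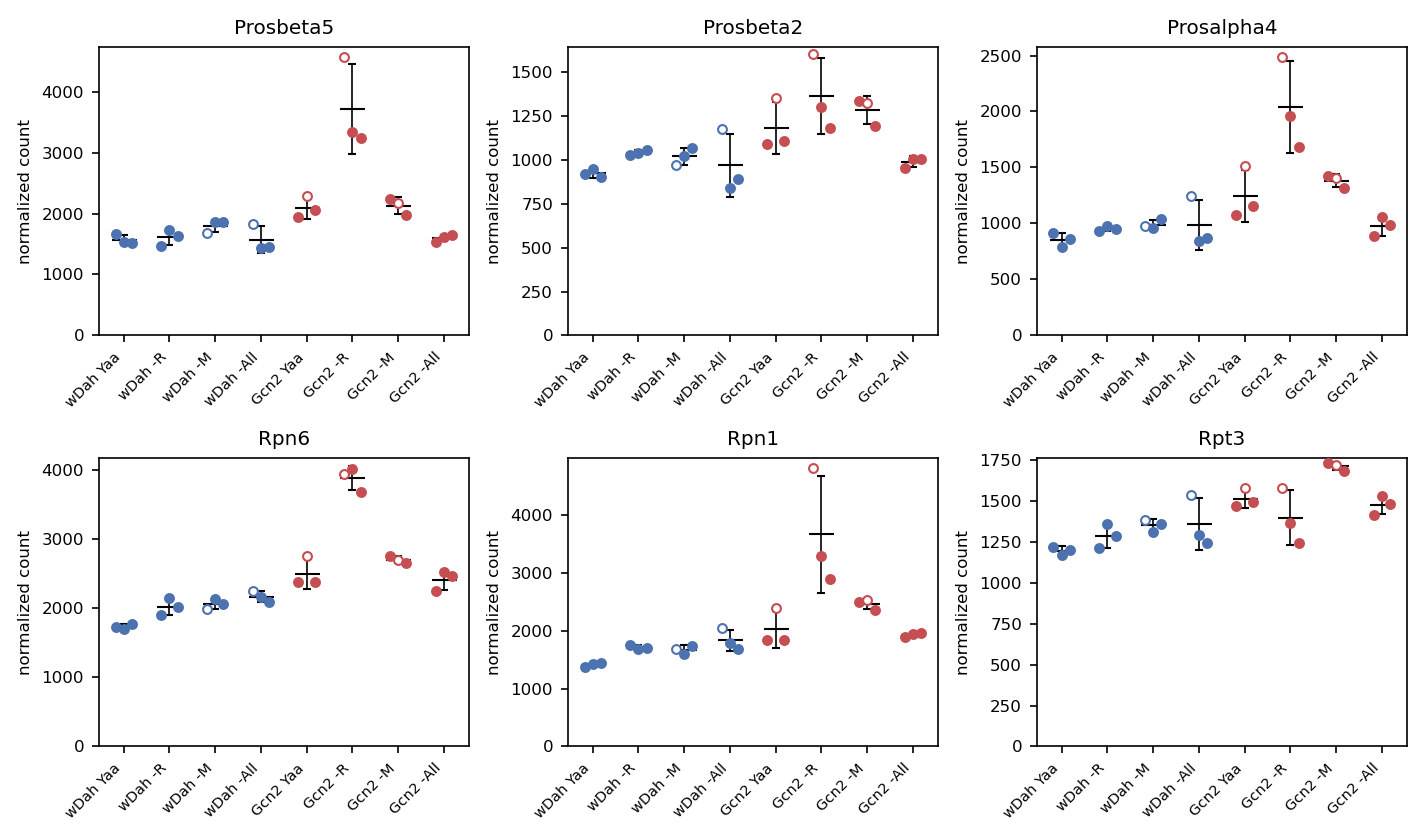
Normalized counts (y axis, from 0) of Prosbeta5, Prosbeta2, Prosalpha4, Rpn6, Rpn1 and Rpt3 in every library of the 8 groups (blue, wDah; red, Gcn2 mutant; open points, libraries high in ovary transcripts; black, mean and SD of 3). Prosbeta5 in mutants on -R (3247 to 4572) stands apart from all other groups, while Rpt3 is highest in mutants on -M.

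Structural subunits of the core rose as well. Prosbeta4 held 737, 789.9 and 791 normalized counts in wDah flies on -R and 1916, 1716 and 1465 in mutants (log2 difference 1.13, SE 0.11, adjusted p = 0.00048). Prosalpha4 held 929.7, 973 and 953 in wDah flies and 2489.6, 1962 and 1679 in mutants (log2 difference 1.08, SE 0.14, adjusted p = 0.0017), and Prosalpha6 887, 1101 and 1005 in wDah flies and 2516, 1911 and 1661 in mutants (log2 difference 1.01, SE 0.17, adjusted p = 0.0041). All 7 alpha ring genes were called, with log2 differences between 0.61 and 1.08, and 6 of 7 beta ring genes. Prosbeta6 was the core gene that was not called, with 878, 985 and 1017 in wDah flies and 1376, 1063 and 993 in mutants (0.24, adjusted p = 0.19).

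In the 19S particle the base scaffolds and receptors were all called on -R and the ATPases were mixed. Rpn13 held 1159, 1278 and 1238 normalized counts in wDah flies and 2766, 2420.1 and 2175 in mutants (log2 difference 1.00, SE 0.10, adjusted p = 0.00062). Rpn10 held 1173, 1326 and 1262 in wDah flies and 2562, 2079.9 and 1813 in mutants (log2 difference 0.77, SE 0.14, adjusted p = 0.0052), and Rpn1 1753, 1683 and 1707 in wDah flies and 4810.3, 3290.1 and 2898 in mutants (log2 difference 1.06, SE 0.18, adjusted p = 0.0047). No libraries overlapped for these 3 genes. Of the ATPases Rpt2, Rpt4 and Rpt5 were called, with log2 differences of 0.69, 0.48 and 0.50. Rpt1, Rpt3 and Rpt6 were not, with 0.28, 0.12 and 0.21. Rpt3 held 1217, 1360.0 and 1285 in wDah flies and 1584, 1369 and 1248 in mutants, so the groups overlapped.

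The lid was as mixed. Rpn6 had the smallest adjusted p of all members, with 1896, 2147 and 2023 normalized counts in wDah flies and 3944, 4013 and 3684 in mutants (log2 difference 0.94, SE 0.077, adjusted p = 0.00025). Rpn11 held 977, 975 and 1006 in wDah flies and 2527, 1977 and 1634 in mutants (log2 difference 1.03, SE 0.16, adjusted p = 0.0028). Rpn3, Rpn8 and Rpn9 were called as well (0.74, 0.40 and 0.62), and Rpn5, Rpn7 and Rpn12 were not (0.26, 0.10 and 0.35). Rpn7 held 946, 1048 and 1025 in wDah flies and 1267, 1034 and 951 in mutants and was the member with the smallest difference. The ratio of means over the 32 members ran from 1.08 to 2.31 (median 1.60), and it was at least 2 for 7 of them.

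Other tissue markers moved with this comparison. The summed flight muscle markers were at 152990 to 174861 normalized counts in mutants on -R and at 223261 to 243500 in wDah flies on -R, and photoreceptor markers (11 of 11 listed) at 246815 to 275682 and 394932 to 423135. Gut digestive enzymes (15 of 16 listed) were at 61639 to 94534 and 270298 to 295134, and yolk and fat body genes (6 of 6) at 589355 to 911137 and 1296562 to 1442337. No marker listed in these groups was at 0 in a whole group, and the part of such shifts in the subunit differences was not tested. Of the testis markers 3 of 18 are listed, at 162 to 212 in sum in mutants on -R and 131 to 158 in wDah flies.

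Without methionine the log2 differences between genotypes ran from 0.15 to 0.57. The largest was that of Prosalpha6, with 967, 1004 and 962 normalized counts in wDah flies and 1531, 1529.6 and 1297 in mutants (log2 difference 0.57, SE 0.07, adjusted p = 0.00092). The smallest adjusted p values were those of Rpn1 (log2 difference 0.55, SE 0.051, adjusted p = 0.00019), Rpt1 (log2 difference 0.47, SE 0.045, adjusted p = 0.00025) and Rpt2 (log2 difference 0.56, SE 0.054, adjusted p = 0.00025). Rpt1 held 1298, 1283 and 1368 in wDah flies and 1851, 1826 and 1788 in mutants, far apart. Prosbeta6, not called on -R, was called here (0.50, adjusted p = 0.00043), as were Rpt3 (0.34) and Rpn7 (0.24). The members not called were Rpn8, Rpn13 and Rpt5. Of the 25 members called on -R and the 29 called on -M, 22 were the same genes, which are 88.0% and 75.9% of the lists. The members not called on -M were all called on -R, so this overlap is the smallest that lists of these lengths allow. It therefore shows no agreement between the diets beyond the lengths of the lists. These comparisons share no libraries.

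Without all amino acids the genotypes lay close. The largest difference was that of Prosalpha1, with 949.6, 646 and 682 normalized counts in wDah flies and 672, 706 and 618 in mutants (-0.17, adjusted p = 0.7 in limma), and the values overlap. The 949.6 is from wDah -All replicate 1, which is high in ovary transcripts. Without this library the median over the members was 0.16 and 0 were called. Rpn6 held 2245, 2166 and 2088 in wDah flies and 2246, 2517 and 2465 in mutants (0.15, SE 0.063). The median SE of a member's log2 difference in this comparison was 0.091.

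Whether the response to a deprivation differed between genotypes was tested as an interaction on 12 libraries. On -R 6 of 32 members had a larger change in mutants and none a smaller one (background 15.9% higher and 5.63% lower), and the median over the members was 0.26, against -0.031 for all genes. They were Rpn13 (log2 0.71, SE 0.12, adjusted p = 0.0016), Prosbeta5 (0.78, SE 0.18, adjusted p = 0.0098), Rpn6 (0.42, SE 0.11, adjusted p = 0.018), Prosalpha2 (0.61), Prosbeta4 (0.61) and Prosalpha7 (0.56). The share called is close to that of all genes. Rpn13 changed by 0.052 on -R in wDah flies and by 0.76 in mutants, and Prosbeta5 by 0.036 and 0.81. Without the libraries high in ovary transcripts 17 members had a larger change in mutants and 1, Rpt3, a smaller one (background 28.5% and 22.0%), with a median of 0.26. The count was 2 without wDah -R replicate 1, 3 without Gcn2 Yaa replicate 1, 13 without Gcn2 Yaa replicate 2 and 11 without Gcn2 -R replicate 3. For these fits the share of all genes called is not given.

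On -M no member was called as an interaction in limma (background 4.21% higher and 2.71% lower), and over all genes 463 were higher and 298 lower, against 375 and 468 after rescaling to the same total. None of the members had an unadjusted p under 0.05, and the differences lay between -0.17 (Rpn8) and 0.18 (Prosbeta6). Without the libraries high in ovary transcripts 0 members were called on -M as well. On -All no member was called (background 0.391% and 0.491%). All 32 estimates were nevertheless below 0, with a median of -0.35 against -0.0075 for all genes, and 20 had an unadjusted p under 0.05. The share of all genes at that unadjusted p is given for neither interaction. The largest was that of Prosalpha4 (-0.53, SE 0.22, adjusted p = 0.47). Without the libraries high in ovary transcripts the median on -All was -0.15, again with 0 members called (background 0.366% higher and 0.576% lower).

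The balance of both particles was followed as the mean of the 14 core genes minus that of the 18 regulatory particle genes, each centred on its own mean. It was 0.014 to 0.038 in wDah flies on Yaa, -0.044 to -0.019 on -R, -0.034 to 0.040 on -M and -0.23 to -0.0013 on -All. In mutants it was 0.060 to 0.086 on Yaa, 0.13 to 0.22 on -R, -0.0064 to 0.064 on -M and -0.18 to -0.13 on -All. The mutant libraries on -R were thus the highest and those on -All among the lowest, and in wDah flies -R lay below Yaa. In the genotype comparison on -R the core genes had a median log2 difference of 0.77 and those of the 19S particle 0.56, with 13 of 14 and 12 of 18 called higher, where 27.7% of all genes were.

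Across the 24 libraries the members were alike in pattern. Over the 496 pairs of members the median Pearson correlation was 0.87, and 0.83 after the group means were subtracted, with 350 pairs above 0.8. The libraries share scaling and tissue make-up, so these values are a description only. Prosalpha4 followed the mean of the other members most closely (0.98), and Rpt3 (0.64) and Rpn7 (0.69) least. Among the 8553 other genes with a mean of at least 100 normalized counts, the pattern most like the mean of the members was that of Pomp (0.94), the maturation factor of the core. Next were Usp14 (0.93), a deubiquitinase that binds Rpn1, DppIII (0.93), a dipeptidyl peptidase, Usp5 (0.93), a deubiquitinase of free ubiquitin chains, grsm (0.93), crn (0.93), TER94 (0.92), the p97 ATPase that extracts ubiquitinated proteins, and psidin (0.91).

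Genes that work with the proteasome were taken from lists given by symbol. Of 10 regulators and assembly factors of the proteasome tested, 9 rose in mutants against wDah on -R and none fell, with a median log2 difference of 0.55. In this comparison 27.7% of all genes rose and 18.2% fell, and the counts of the further lists on -R are to be read against these shares. REG, the PA28 gamma activator, rose by 1.39 (SE 0.064, adjusted p = 2.9e-05), Usp14 by 1.34 (SE 0.10, adjusted p = 0.00014) and Sem1, the smallest lid subunit, whose symbol does not match the rule, by 0.62 (SE 0.13, adjusted p = 0.01). Rad23, a shuttle factor, was the gene that did not pass (0.064). On -M 4 of 10 rose (background 12.2% higher). None rose on Yaa (background 1.38%) or -All (0.560%), where few genes of any kind were called. As interactions on -R 3 of 10 had a larger change in mutants (background 15.9%). They were REG (1.08), Usp14 (0.81) and the proteasome regulator PI31 (0.55).

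Of the p97 complex, TER94 rose in mutants on -R by 0.93 (SE 0.07, adjusted p = 0.00017) and its cofactor Ufd1-like by 0.32, while the cofactor Npl4 fell by 0.30, and p47 (0.34) did not pass. In wDah flies TER94 also rose on -R (0.27), -M (0.33) and -All (0.47). Of 5 genes for ubiquitin and its activation, Uba1, the E1 enzyme, rose in mutants on -R by 0.81 (SE 0.12), while RpL40 and RpS27A, which encode ubiquitin fused to ribosomal proteins, fell by 0.30 and 0.28, and the polyubiquitin gene Ubi-p5E fell by 0.45. Ubi-p63E had a difference of 0.12 and was not called.

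The COP9 signalosome, a relative of the lid that removes Nedd8 from cullins, rose in 5 of 7 genes in mutants on -R, led by its catalytic subunit CSN5 (log2 difference 1.13, SE 0.10, adjusted p = 0.00027), CSN8 (0.61) and CSN1b (0.56). The CCT chaperonin, which folds actin and tubulin, rose in 8 of 8 genes tested, with a median of 1.72. CCT5 (2.59), CCT1 (2.30) and CCT4 (2.23) had the largest differences. In wDah flies 6 of 8 CCT genes fell on -R (background 8.98% lower), with a median of -0.24, whereas 13 proteasome subunits rose there (13.8% higher). On -M none of the CCT genes was called between genotypes (median -0.048), where 29 proteasome subunits were (background 12.2% higher and 10.9% lower).

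Of 10 stress chaperones 5 rose and 2 fell in mutants against wDah on -R. The small heat shock protein gene Hsp23 rose by 3.86 (SE 0.24), Hsc70-3, the BiP of the endoplasmic reticulum, by 2.12 (SE 0.15) and Hsp83, the cytosolic Hsp90, by 1.85 (SE 0.088). Of 19 autophagy genes tested 1 rose and 3 fell in that comparison, with a median of 0.017. Atg17, a subunit of the Atg1 complex, had a smaller change on -R in mutants (-0.94 as an interaction), Atg2 rose by 0.76 in mutants on -All against Yaa and Atg13 by 0.71 in wDah flies on -All.

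**Figure D5:**
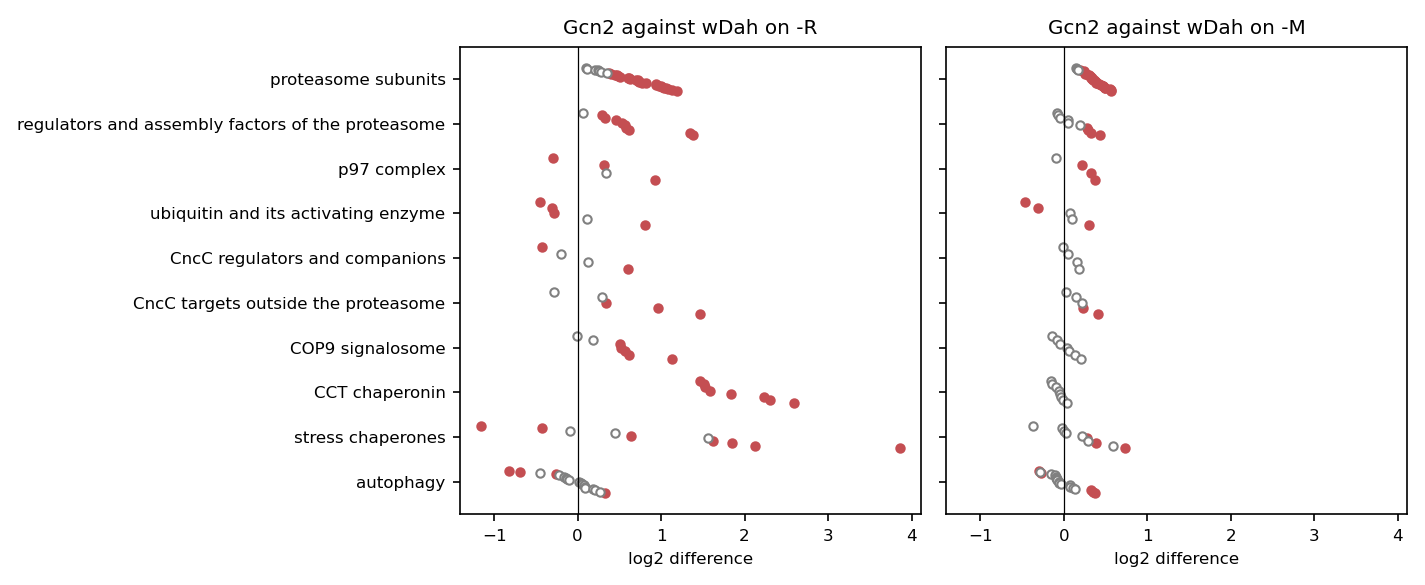
Log2 differences between Gcn2 mutants and wDah flies on -R (left) and -M (right) for the 32 subunits and the genes of 9 related lists (rows), 1 point a gene, filled where the adjusted p was under 0.05. On -R the CCT chaperonin (1.46 to 2.59) lies to the right of the proteasome subunits (0.098 to 1.19), and on -M it lies around 0 while 29 subunits are called.

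The gene cnc itself was not called between genotypes on any diet. In wDah flies it rose on -R (0.29, adjusted p = 0.00051), -M (0.30) and -All (0.29). Between genotypes on -R its difference was -0.20 (SE 0.21, adjusted p = 0.46 in limma). Keap1, which holds CncC inactive, rose in wDah flies on all 3 diets (0.58, 0.45 and 0.58) and was lower in mutants than in wDah flies on -R by a log2 of -0.43 (SE 0.13, adjusted p = 0.038). The gene maf-S, whose product pairs with CncC, fell in wDah flies on each diet (-0.26, -0.37 and -0.49). Pngl, the peptide N-glycanase, whose mammalian and worm relatives are needed to activate the relatives of CncC, rose in mutants on -R (0.60, adjusted p = 0.00081).

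Known CncC targets outside the proteasome rose in 3 of 5 genes between genotypes on -R. Trxr-1, the thioredoxin reductase, rose by 1.46 (SE 0.07, adjusted p = 3.1e-05) and GstD1, a glutathione S-transferase, by 0.96 (SE 0.11, adjusted p = 0.00073). Gclm, a subunit of the enzyme that makes glutathione, had a difference of -0.29 there and was not called, but rose in wDah flies on -R (0.44) and in mutants on -M against Yaa (0.73). The lists were chosen with earlier results of these data known, so their counts describe these libraries and are not independent support.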

How the data were processed

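RNA was measured in 24 libraries. The authors mapped 100 bp single-end poly(A) reads to BDGP6.32 transcripts with kallisto 0.46.2 and divided the estimated counts by DESeq2 1.24.0 size factors. The authors deposited this signal, the normalized count, in 1 table of 24 libraries and 6 tables of 6 libraries, whose fold-change and p-value columns were not used. The FPKM values deposited by the authors served only for levels between genes. The depth of each library is not given (the study states only a general figure), and whole reads could not be worked back from the values, which left no basis for a count model. Genes averaging 10 or more in a comparison entered limma 3.58.1 (R 4.3.3) on log2(normalized count + 1), with a mean-variance trend, two-sided, adjusted by Benjamini-Hochberg over all genes. Such differences understate changes of low genes. Diets were compared with Yaa within a genotype, genotypes within a diet (6 libraries each), and interactions on 12 libraries. Scripts were tested on simulated data. Alternatives covered scaling, pseudocount, filter, trend, array weights, replicate block, ovary transcripts and single libraries.

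Values were named for the catalytic subunits, Rpn6, Rpn10 and Rpn11, and in each comparison for the 3 called members with the smallest adjusted p and the member with the largest difference, and in each related list for the 3 called genes with the largest difference. Other genes were named after their values were seen. Members, lists and rule were chosen with earlier results of these data known. Names and overlaps came from the BDGP6.54 annotation and a gene name table. The labels do not say whether replicate numbers pair samples. Every same-numbered pair correlated above 0.1 in 1 of 10 comparisons (mutants on -M against Yaa, with correlations of 0.27, 0.48 and 0.23). In both of these groups replicate 2 is high in ovary transcripts, so the correlations do not show that samples are paired. In that comparison the block left 0 members called, as without it.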

Additional observations from a re-analysis of the deposited data

Results flagged for a closer look

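A difference between genotypes in the response to -R passed the interaction test in limma for 6 of 32 members. This share is near that of all genes (15.9% higher), and the count ran from 2 to 13 with single libraries left out (2 without wDah -R replicate 1, 13 without Gcn2 Yaa replicate 2). The share of all genes called with single libraries left out is not given. The interaction log2 differences were 0.71 for Rpn13, 0.78 for Prosbeta5, 0.42 for Rpn6, 0.61 for Prosalpha2, 0.61 for Prosbeta4 and 0.56 for Prosalpha7, each a larger change in Gcn2 mutants than in wDah flies. For Prosalpha2 the change on -R was 0.022 in wDah flies and 0.63 in mutants, for Prosbeta4 0.079 and 0.69, and for Prosalpha7 -0.017 and 0.54. Groups of 3 libraries are too small for a search for single outlying libraries.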

How the results depend on the processing

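The comparison of genotypes on -R kept between 17 and 28 members called under each library left out in turn, and no alternative moved its count by over 1.5 times. For the following counts of members called and medians of their log2 differences the cause of the change was not tested. The share of all genes called is not given beside the counts of this section, and it moved as well. In mutants on -R against Yaa 17.3% of all genes were called higher with every library kept. Without the 5 libraries high in ovary transcripts it was 33.0%. A change in a count alone therefore cannot be read as specific to the members. With all 24 libraries in a single fit 1 member was called in wDah flies on -R and 2 on -M, in mutants 21 on -R, 2 on -M and 2 on -All, between genotypes 20 on Yaa and 17 on -M, and 12 as an interaction on -R. With libraries rescaled to the same total, wDah flies had 3 called on -R (median 0.018), 5 on -M (median 0.10) and 2 on -All (median -0.076, with Rpn13 at -0.049), and mutants 3 on -R, a median of 0.021 on -M, and 24 on -All (median -0.45). With the same upper quartile, wDah flies had 5 on -R (median 0.092) and 12 on -M (median 0.14), mutants 3 on -R and 3 on -All, and 3 were called between genotypes on Yaa and 3 as an interaction on -R. Without a mean-variance trend 8 were called in wDah flies on -R, 5 and 0 in mutants on -R and -All, and 2 between genotypes on Yaa. With array weights 23, 21 and 5 were called in mutants on -R, -M and -All, 24 between genotypes on Yaa, and 20, 1 and 1 as interactions on -R, -M and -All. With the ovary score as a covariate 1 was called in wDah flies on -All (median 0.031), 22, 10 and 3 in mutants on -R, -M and -All, 23 between genotypes on Yaa and 17 as an interaction on -R, and the median of the interaction on -All was -0.14. Without the 5 libraries high in ovary transcripts 23, 15 and 2 were called in mutants, 23 and 17 between genotypes on Yaa and -M, and 18 as an interaction on -R, with a median of -0.15 for that on -All. With a mean of at least 100 normalized counts 2 were called in mutants on -All.

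With the replicate number as a block 2 members were called in mutants on -R, 0 on -All and 0 between genotypes on Yaa, and no other count of called members moved by over 1.5 times. Of 30 same-numbered pairs 9 correlated above 0.1. Pairs with different numbers were not compared, so these values cannot decide whether the numbers pair samples. With single libraries left out the counts ran over 5 to 17, 10 to 22 and 9 to 15 in wDah flies on -R, -M and -All, with medians of 0.13 to 0.20, 0.17 to 0.22 and 0.11 to 0.27. In mutants they ran over 2 to 17, 0 to 21 and 0 to 2, with medians of 0.34 to 0.58, 0.11 to 0.26 and -0.22 to -0.043. Between genotypes on Yaa, -R, -M and -All they ran over 0 to 23, 17 to 28, 21 to 31 and 0 to 0, with medians of 0.29 to 0.44, 0.52 to 0.78, 0.32 to 0.39 and -0.018 to 0.16. For the interactions on -R, -M and -All they ran over 2 to 13, 0 to 0 and 0 to 0, with medians of 0.14 to 0.37, -0.099 to 0.061 and -0.41 to -0.25. Of 1502 alternative fits of the 80 calls of named members, 1251 kept the call, 250 lost it with the same direction and 1 turned the direction. The depth of each library is not given, which limits statements on genes not called.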
